A study of Mus musculus with 12 samples.

Results

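The ErbB receptors Egfr, Erbb2, Erbb3 and Erbb4 and the neuregulins Nrg1, Nrg2, Nrg3 and Nrg4 were followed in hippocampal slices of control mice and of Ptpn11D61Y mice, in the basal state and after a pulse of neuronal activity. The 8 genes were chosen by name, with earlier results of these data known. Each has 1 transcript cluster on the array that carries its symbol alone, so that 8 of 8 were measured, among 22180 genes with such a cluster. All 8 entered each comparison, since no filter on low signal was applied.

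ErbB receptors are receptor tyrosine kinases that signal as dimers. Egfr binds EGF and related ligands, Erbb3 and Erbb4 bind neuregulins, Erbb2 has no ligand of its own and serves as the partner of the others, and Erbb3 has little kinase activity of its own and passes the signal on through PI3K. In the brain, Erbb4 is known mainly from inhibitory interneurons, Erbb3 from the oligodendrocyte lineage, and Nrg1 and Nrg3 from neurons, where they are made as membrane-bound precursors. SHP2, the phosphatase encoded by Ptpn11, is recruited by the receptors and by the adaptor Gab1 and promotes signaling through Ras and MAPK. The comparisons therefore address the transcript level of receptors and ligands that lie upstream of the mutated phosphatase.

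Ptpn11D61Y mice carried the conditional Ptpn11 floxed D61Y allele on one chromosome together with the Emx1-IREScre allele. Emx1 drives this Cre in astrocytes and excitatory neurons of the forebrain. Control mice are described differently by the sources: in the sample labels they have the floxed D61Y allele but lack Emx1-IREScre, and in the methods they have wild-type Ptpn11 and carry the Cre. Brains came from animals of 8 to 11 weeks, and slices of 350 µm from each animal were given either DMSO (basal, B) or 2.5 mM 4AP, a blocker of potassium channels, with 50 µM bicuculline, an antagonist of GABAA receptors (stimulated, S), both for 10 min. RNA was taken after a further 3 h without drugs. There were 4 groups of 3 arrays. By the labels, each genotype had 3 animals, and the B and S arrays of 1 genotype and number come from the same animal. After removal of group means, these pairs correlated at 0.55, 0.39 and 0.19 in Ptpn11D61Y but only at 0.05, -0.01 and 0.04 in control. Control and Ptpn11D61Y arrays of the same number, from different animals, correlated as closely in B, at 0.56, 0.36 and 0.19. Values given per animal therefore rest on the labels alone in both genotypes.

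The 12 arrays read 41345 transcript clusters, and values are given here as log2 of the signal intensity. Ptpn11 lay between 8.32 and 8.88 on the 12 arrays, with a log2 fold change of -0.09 ± 0.20 (standard error) in Ptpn11D61Y B vs. control B and -0.05 ± 0.20 in S (adjusted p = 1 from limma for each). The array reads the level of that transcript and not the mutated codon. Markers of excitatory neurons of the hippocampus were present on all arrays, with a list mean of 8.38 to 9.52 over 10 measured genes. The arrays of replicate 1 stood apart in all 4 groups, with a median correlation of 0.877 to 0.911 with the other arrays, against 0.942 to 0.957 for replicates 2 and 3. The array of Ptpn11D61Y B replicate 3 carried a list mean of 8.74 for choroid plexus markers, against 4.98 to 5.94 on the other arrays. Every comparison rests on bulk tissue, in which fewer cells of a type and less RNA per cell cannot be told apart.

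A member was counted as changed when it passed the filter of the study's methods, a fold change of at least 1.5 in either direction with an unadjusted p under 0.05. The p-values come from limma, and a p adjusted over all 41345 clusters by Benjamini-Hochberg is given beside them. No cluster on the array passed an adjusted p of 0.05 in any of the 7 comparisons made, and the number at an unadjusted p under 0.05 was 482 to 3348. Results by the filter therefore carry no control of false calls over the array.

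**Figure D1:**
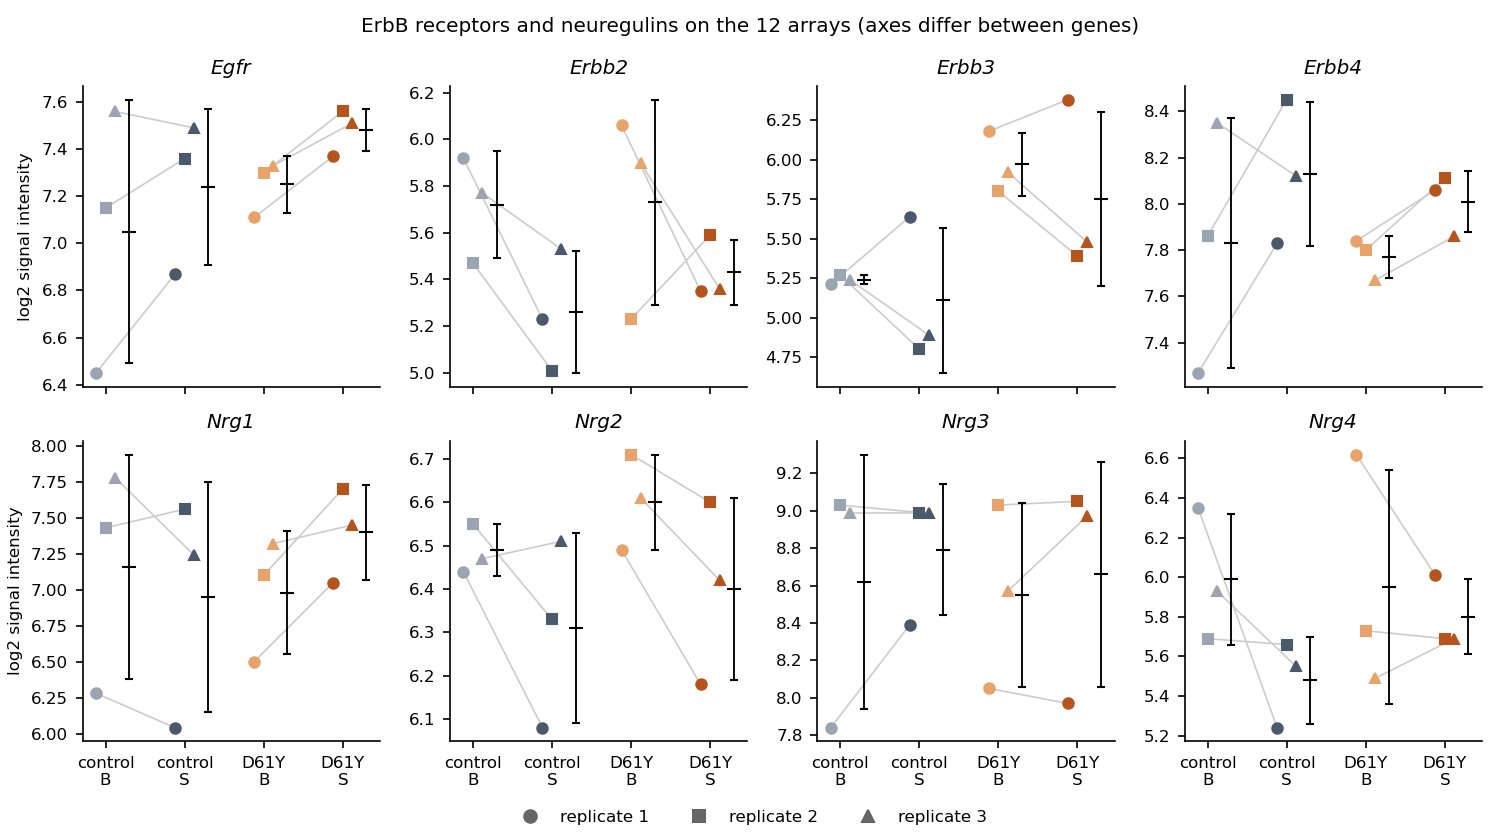
Log2 signal intensity (vertical axes, which differ between genes) of the 8 genes on the 12 arrays, by group. Points are arrays, grey lines join the B and S slices of 1 animal, and black bars give the group mean ± SD of 3 arrays. Erbb3 in Ptpn11D61Y B, from 5.80 to 6.18, sits above control B, from 5.21 to 5.27, while Nrg3 of replicate 1 is the lowest in each group.

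Erbb3 was the member that differed between the genotypes. In the basal state its log2 signal was 5.21, 5.27 and 5.24 in control B replicates 1 to 3 and 6.18, 5.80 and 5.92 in Ptpn11D61Y B. The groups did not overlap, and the control values lay closer together than those of Ptpn11D61Y. The log2 fold change was 0.73 ± 0.31 (n = 3 arrays per group), a fold of 1.65 with a 95% interval of 1.04 to 2.64 (adjusted p = 1 from limma). Erbb3 was thus the 1 member of 8 past the filter in Ptpn11D61Y B vs. control B. Of all clusters, 1.3% passed it in either direction and 0.759% passed it as higher. The study itself had called Erbb3 higher in this comparison on the same arrays. The count of 1 of 8 is therefore not independent of the choice of genes. Groups that did not overlap, with Ptpn11D61Y higher, were found for 2.48% of all clusters. The unadjusted p was 0.0366 from limma, and p = 0.1 from an exact two-sided permutation test of the 3 against 3 arrays, the smallest this design allows.

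After stimulation, Erbb3 was at 5.64, 4.80 and 4.89 in control S and at 6.38, 5.39 and 5.48 in Ptpn11D61Y S. Control S replicate 1 exceeded Ptpn11D61Y S replicates 2 and 3, so these groups overlapped. The log2 fold change was 0.64 ± 0.31, with a 95% interval of -0.03 to 1.31 (adjusted p = 1 from limma), and 0 of 8 members passed the filter in Ptpn11D61Y S vs. control S, against 1.83% of all clusters. The unadjusted p was 0.0604 from limma and 0.3 from the exact permutation test. With the replicate number added to the fit as a block, Erbb3 passed the filter in S at 0.64. Control and Ptpn11D61Y arrays that share a number are different animals, however, and correlated only at 0.12, 0.04 and 0.18 in S. The difference between the genotypes did not itself differ detectably between the states: the interaction term was -0.09 ± 0.43 (95% interval -1.04 to 0.86, adjusted p = 1 from limma).

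Averaged over both states for each animal, Erbb3 was at 5.42, 5.03 and 5.07 in the 3 control animals and at 6.28, 5.59 and 5.70 in the 3 Ptpn11D61Y animals. The lowest Ptpn11D61Y animal lay above the highest control animal. The difference was 0.68 ± 0.24 on the log2 scale, a fold of 1.61 with a 95% interval of 1.08 to 2.39 (unadjusted p = 0.0258, adjusted p = 1 from limma, exact permutation p = 0.1, the smallest possible). It was the 1 of 8 members past the filter in this comparison, which 1.24% of all clusters passed, and animals that did not overlap with Ptpn11D61Y higher were found for 4.19%.

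Arrays of the 2 genotypes that share a replicate number come from different animals, but replicate 1 stood apart in both, so Erbb3 was also read within each number. Ptpn11D61Y exceeded control by 0.97, 0.53 and 0.68 in the basal state and by 0.75, 0.59 and 0.58 after stimulation for numbers 1, 2 and 3. All 6 differences were above 0, as was the case for 2.75% of all clusters. By the labels these rest on 3 animals per genotype, so they are not 6 independent comparisons. Without replicate 1 of every group, the log2 fold change was 0.60 in B and 0.59 in S, and Erbb3 passed the filter in both.

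The basal call was lost without any 1 of control B replicates 1, 2 and 3 and Ptpn11D61Y B replicates 1 and 3, where the p rose above 0.05 at log2 fold changes of 0.62 to 0.75, and held without Ptpn11D61Y B replicate 2 at 0.81. Leaving out control S replicate 1 or Ptpn11D61Y S replicate 2 brought the stimulated difference past the filter at 0.90 and 0.82, and leaving out Ptpn11D61Y S replicate 1 gave 0.32; the difference between animals was lost from the filter without control animal 2 (0.61) or 3 (0.63) or Ptpn11D61Y animal 1 (0.47). Erbb3 is dim on these arrays, with 2 of 12 values under a log2 signal of 5, and log2 of the intensity plus 16 gave 0.55 in B, under the fold required.

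**Figure D2:**
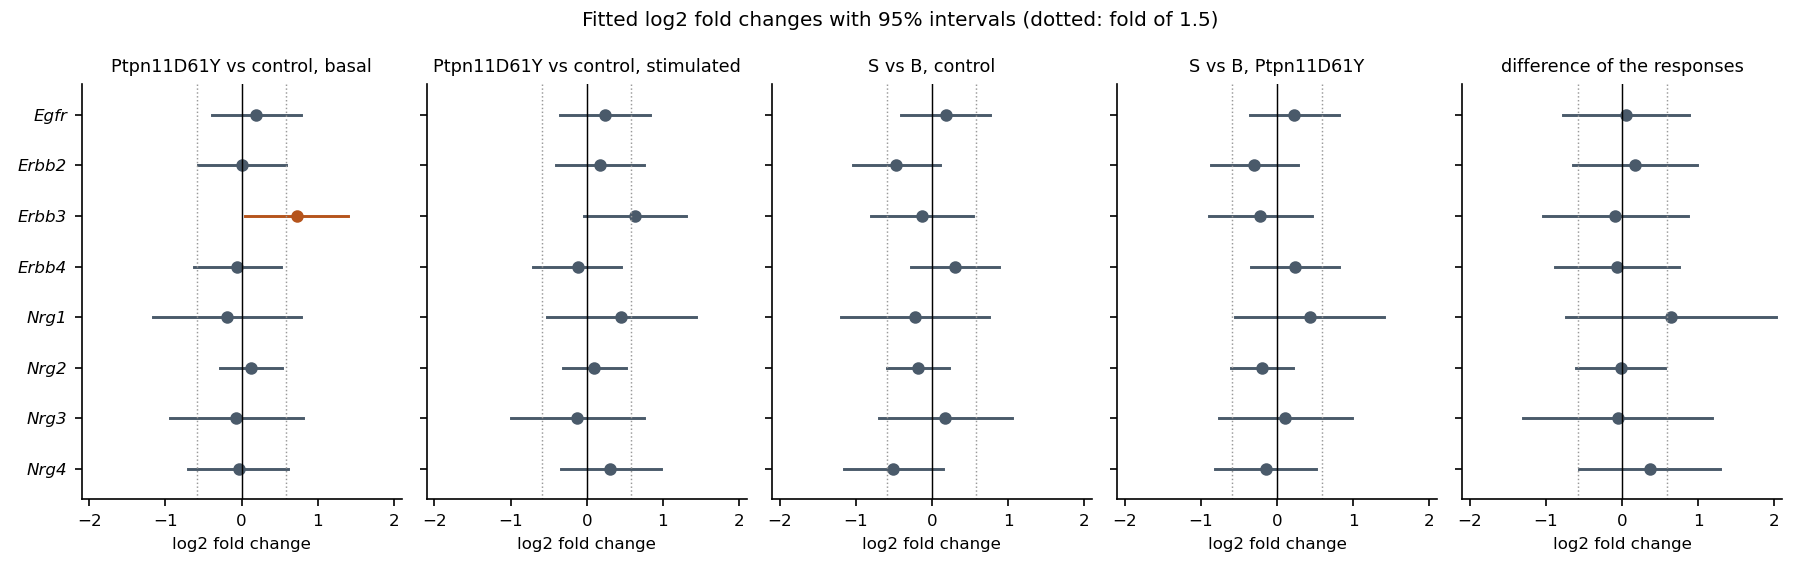
Fitted log2 fold change (horizontal axes) of the 8 genes in 4 comparisons and in the difference of the responses to stimulation (the interaction term). Points are the estimates, lines their 95% intervals and dotted lines a fold of 1.5; Erbb3 in the basal state, at 0.73, is the estimate past the filter, drawn in orange.

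Markers of the oligodendrocyte lineage were also higher in Ptpn11D61Y. The marker lists, like the 8 members, were chosen with earlier results of these data known, and the study had called Pdgfra higher in the basal state. Of 8 measured markers of oligodendrocyte precursors, 8 had a fold change above 0 in Ptpn11D61Y B vs. control B (median 0.44 on the log2 scale), and 2 passed the filter. These were Pdgfra, the receptor for PDGF-A on precursors, at 0.75 ± 0.18, and C1ql1 at 0.60 ± 0.24 (adjusted p = 1 from limma for both). Of 11 measured markers of myelinating oligodendrocytes, 11 lay above 0, with a median of 0.47, and 3 passed. They were Aspa, the aspartoacylase of oligodendrocytes, at 0.77 ± 0.22, the myelin protein Mog at 0.65 ± 0.26 and the myelin adhesion protein Mag at 0.60 ± 0.23 (adjusted p = 1 from limma for each). The median over all clusters was 0.00, and 0.759% of them passed the filter as higher. With each of the 6 basal arrays left out in turn, an alternative chosen after seeing the data, Pdgfra and Aspa passed 6 of 6 times. Mag was lost when control B replicate 3 was left out or when replicate 2 of Ptpn11D61Y B was, Mog without these or control B replicate 1, and C1ql1 without control B replicate 1 or 2 or Ptpn11D61Y B replicate 2 or 3, at estimates down to 0.42, 0.46 and 0.42.

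In Ptpn11D61Y S vs. control S, 8 of 8 precursor markers and 11 of 11 myelin markers again lay above 0. Their medians were 0.42 and 0.38, against 0.06 for all clusters. Mag passed the filter at 0.65 ± 0.23 (adjusted p = 1 from limma), which 1.43% of all clusters passed as higher. The mean of the precursor list was 6.83 to 7.45 in control B, 6.87 to 7.43 in control S, 7.49 to 7.84 in Ptpn11D61Y B and 7.20 to 7.85 in Ptpn11D61Y S. The myelin list had a mean of 8.20 to 8.78 in control B, 8.33 to 8.69 in control S, 8.59 to 9.30 in Ptpn11D61Y B and 8.46 to 9.16 in Ptpn11D61Y S. Within each replicate number, both list means were higher in Ptpn11D61Y in 6 of 6 differences, by 0.32 to 0.65 for precursors and by 0.13 to 0.53 for myelin. Mural markers were also higher in 6 of 6, by 0.13 to 0.42. Endothelial and choroid plexus markers were higher in 5 of 6, and the remaining lists in 2 to 4 of 6. As for Erbb3, the 6 differences rest on 3 animals per genotype. The part of oligodendrocyte lineage cells in the difference of Erbb3 was not tested.

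Across the 12 arrays, Erbb3 followed neither list mean closely, with r = 0.12 for precursors and r = 0.07 for myelin, as a description of arrays that share animals and scaling. Replicate 1 was high for Erbb3 and low for the lists in 3 of 4 groups, and over the 8 arrays of replicates 2 and 3 the values were 0.75 and 0.57. Those 8 arrays gave similar values for choroid plexus (0.62), endothelial (0.59) and astrocyte markers (0.49), and -0.83 for interneuron markers, so the relation was not particular to the oligodendrocyte lineage. Schwann cells, the other glia known for Erbb3, were checked with 5 measured markers, 3 above 0 and 2 below in B, around a median of 0.14, and 0 of 5 passed the filter. Astrocyte markers lay above 0 for 8 of 9 genes in both states (medians 0.18 in B and 0.11 in S), microglial markers for 6 of 8 in B (0.12) and 3 of 8 in S (-0.10), and markers of excitatory neurons for 3 of 10 in B (-0.03) and 2 of 10 in S (-0.14), with 0 past the filter in each. Markers of vessels and membranes also lay above 0 in B: 10 of 10 for mural cells (median 0.28, 0 past the filter), 10 of 12 for endothelium (median 0.22, Slco1a4 past it at 0.83 ± 0.38) and 9 of 11 for meningeal fibroblasts (median 0.34, Pdgfra past it). In S, mural markers lay above 0 for 10 of 10 (median 0.28), endothelial for 10 of 12 (0.13) and meningeal for 7 of 11 (0.37), with 0 past the filter in each. Choroid plexus markers had a median of 1.17 in B with 9 of 10 above 0, and Ttr (3.46 ± 1.29) and Cldn2 (1.12 ± 0.39) past the filter. Erbb3 was as large, at 0.75, with that array (Ptpn11D61Y B replicate 3) left out, though no longer past the filter.

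**Figure D3:**
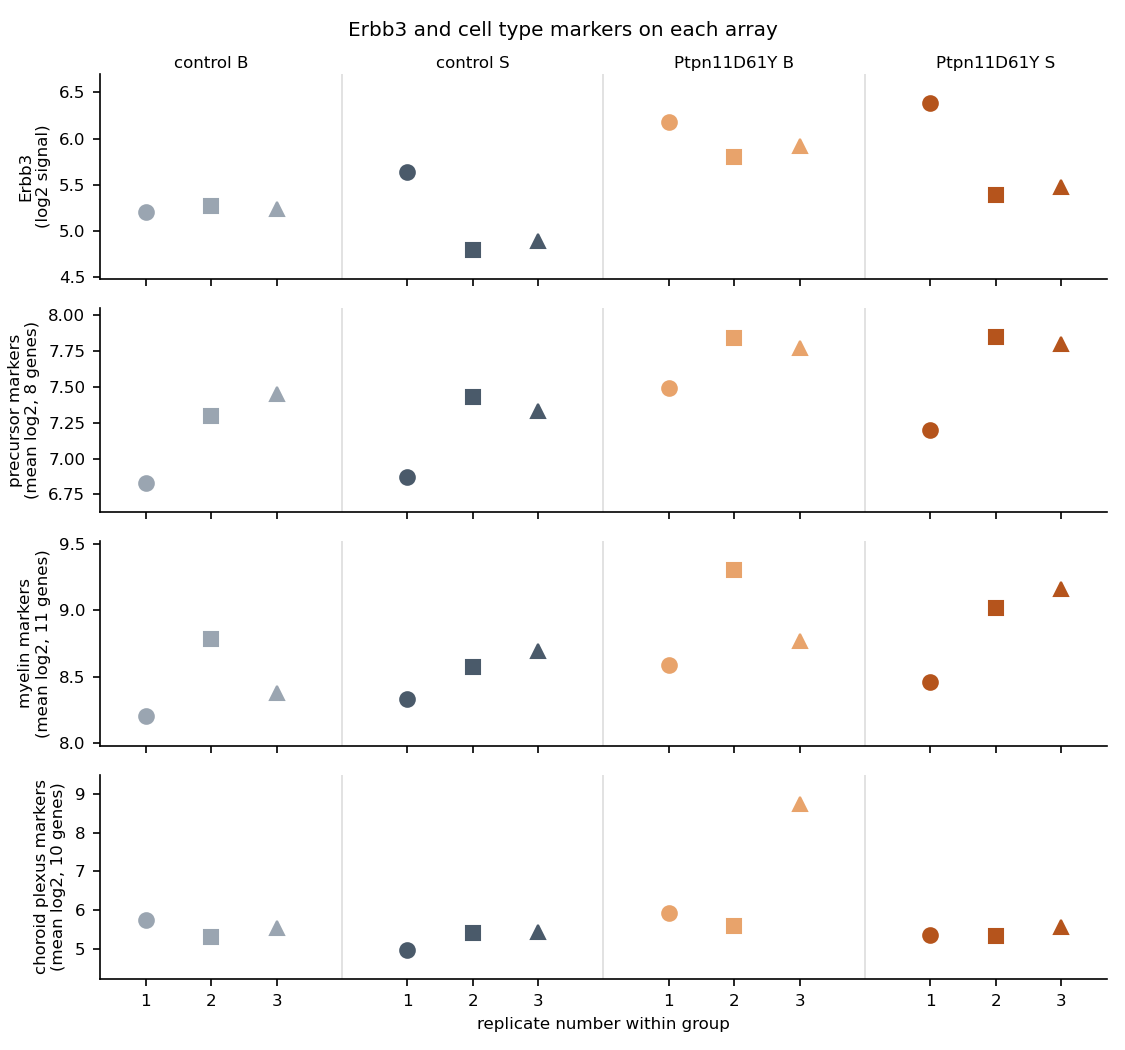
Log2 signal of Erbb3 and the mean log2 signal of 3 marker lists (vertical axes) on each of the 12 arrays, by group and replicate number (horizontal axis). The precursor markers are at 7.49 to 7.84 in Ptpn11D61Y B against 6.83 to 7.45 in control B, replicate 1 is the lowest of its group for both oligodendrocyte lists, and the choroid plexus markers of Ptpn11D61Y B replicate 3 stand at 8.74.

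The other receptors did not pass the filter between the genotypes. Egfr, the receptor for EGF, was at 6.45, 7.15 and 7.56 in control B, at 6.87, 7.36 and 7.49 in control S, at 7.11, 7.30 and 7.33 in Ptpn11D61Y B and at 7.37, 7.56 and 7.51 in Ptpn11D61Y S. The control animals spread more widely than the Ptpn11D61Y animals, and the genotypes overlapped in both states. The log2 fold change between genotypes was 0.19 ± 0.27 in B and 0.24 ± 0.27 in S. Egfr had its highest mean, 7.48 ± 0.09 (SD, n = 3), in Ptpn11D61Y S and its lowest, 7.05 ± 0.56, in control B.

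Erbb2, the partner receptor, was at 5.92, 5.47 and 5.77 in control B, at 5.23, 5.01 and 5.53 in control S, at 6.06, 5.23 and 5.90 in Ptpn11D61Y B and at 5.35, 5.59 and 5.36 in Ptpn11D61Y S. The 2 basal groups had nearly the same mean, 5.72 ± 0.23 and 5.73 ± 0.44. Its log2 fold change between genotypes was 0.01 ± 0.26 in B, with a 95% interval of -0.57 to 0.58, and 0.17 ± 0.26 in S. The transcript of the dimer partner of Erbb3 thus gave an estimate near 0 in the comparison in which Erbb3 passed.

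For Erbb4, the neuregulin receptor of interneurons, values were 7.27, 7.86 and 8.35 in control B, 7.83, 8.45 and 8.12 in control S, 7.84, 7.80 and 7.67 in Ptpn11D61Y B and 8.06, 8.11 and 7.86 in Ptpn11D61Y S. The 3 arrays of Ptpn11D61Y B lay within the range of control B. The log2 fold change was -0.06 ± 0.26 in B and -0.12 ± 0.26 in S. Both intervals reach past a fold of 1.5 in the lower direction (-0.63 to 0.52 and -0.70 to 0.45), so a difference of that size was not excluded by these arrays.

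Among the ligands, Nrg1 gave the widest intervals. Its log2 signal was 6.28, 7.43 and 7.78 in control B, 6.04, 7.56 and 7.24 in control S, 6.50, 7.10 and 7.32 in Ptpn11D61Y B and 7.05, 7.70 and 7.45 in Ptpn11D61Y S. Replicate 1 was the lowest array of each group. The log2 fold change between genotypes was -0.19 ± 0.44 in B and 0.45 ± 0.44 in S (adjusted p = 1 from limma for both). Neither had a settled size, and the value in B had no settled sign. The value in B was -0.63 without control B replicate 1 and 0.12 without control B replicate 3. That in S was 0.00 with control S replicate 1 left out and 0.76 with replicate 2 of that group left out.

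Nrg2 varied least of the 8 genes, with a range of 0.63 over the 12 arrays. It was at 6.44, 6.55 and 6.47 in control B and at 6.49, 6.71 and 6.61 in Ptpn11D61Y B, a log2 fold change of 0.12 ± 0.19 with a 95% interval of -0.29 to 0.53. After stimulation it was at 6.08, 6.33 and 6.51 in control and at 6.18, 6.60 and 6.42 in Ptpn11D61Y (0.10 ± 0.19). Both intervals lie inside a fold of 1.5 in either direction.

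Nrg3, a neuronal ligand of Erbb4, was at 7.84, 9.03 and 8.99 in control B, 8.39, 8.99 and 8.99 in control S, 8.05, 9.03 and 8.57 in Ptpn11D61Y B and 7.97, 9.05 and 8.97 in Ptpn11D61Y S. All 4 arrays of replicate 1 lay below the other 8. The genotypes differed by -0.07 ± 0.40 in B and by -0.13 ± 0.40 in S, far less than replicate 1 differed from replicates 2 and 3.

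Nrg4, which binds Erbb4, was at 6.35, 5.69 and 5.93 in control B and at 6.62, 5.73 and 5.49 in Ptpn11D61Y B (-0.04 ± 0.30). Stimulated values were 5.24, 5.66 and 5.55 in control and 6.01, 5.69 and 5.69 in Ptpn11D61Y. The stimulated groups did not overlap, although the gap between Ptpn11D61Y replicates 2 and 3 and control replicate 2 was small, and such a separation with Ptpn11D61Y higher was found for 4.76% of all clusters. The log2 fold change was 0.31 ± 0.30 (adjusted p = 1 from limma), and the exact permutation test gave p = 0.1, the smallest possible.

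The order of the 4 group means was shared by some members. Erbb3 was highest in Ptpn11D61Y B (5.97 ± 0.20, SD, n = 3) followed by Ptpn11D61Y S (5.75 ± 0.55), control B (5.24 ± 0.03) and control S (5.11 ± 0.46). Erbb2 and Nrg2 both ran from Ptpn11D61Y B through control B and Ptpn11D61Y S to control S, from 5.73 to 5.26 and from 6.60 to 6.31. Erbb4 and Nrg3 both ran from control S through Ptpn11D61Y S and control B to Ptpn11D61Y B, from 8.13 to 7.77 and from 8.79 to 8.55. Neighbouring means lay closer together than the wider of their 2 SDs in all members, with 4 exceptions: Egfr in Ptpn11D61Y S and B (a gap of 0.23), Erbb2 in control B and Ptpn11D61Y S (0.29), Nrg2 in Ptpn11D61Y B and control B (0.12) and Nrg4 in Ptpn11D61Y S and control S (0.31). Of these, the 3 pairs that share a genotype or a state were tested and did not pass the filter, and the pair of Erbb2 was not tested.

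Stimulation moved no member past the filter. In control S vs. B, 0 of 8 members passed, against 3.17% of all clusters, and in Ptpn11D61Y S vs. B 0 of 8, against 1.14%. The S minus B difference of each animal, averaged over both genotypes, also gave 0 of 8 past the filter, against 2.53% of all clusters. The median over all clusters was -0.10 in control, -0.02 in Ptpn11D61Y and -0.07 over both.

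Egfr and Erbb4 were higher in S than in B in 5 of 6 animals each, a count of at least 5 that 14.3% of all clusters reached. Egfr differed by 0.42, 0.22 and -0.08 in the control animals and by 0.26, 0.26 and 0.18 in the Ptpn11D61Y animals, 0.21 ± 0.10 on average (adjusted p = 0.591 from limma). Erbb4 differed by 0.56, 0.59 and -0.23 in control and by 0.22, 0.31 and 0.18 in Ptpn11D61Y, on average 0.27 ± 0.13 (adjusted p = 0.591). In both genes control animal 3 was the exception. For both, the groups Ptpn11D61Y S and B did not overlap, which was found with S higher for 1.59% of all clusters.

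Interneuron markers, the cells in which Erbb4 is best known, lay above 0 for 9 of 12 measured genes in control S vs. B (median 0.22) and for 11 of 12 in Ptpn11D61Y S vs. B (median 0.24). This was not particular to interneurons. Markers of excitatory neurons lay above 0 for 7 of 10 in both comparisons (medians 0.22 and 0.19). Astrocyte markers did so for 7 of 9 in control (0.14) and 5 of 9 in Ptpn11D61Y (0.06). Calb2, the calcium-binding protein calretinin, passed the filter in Ptpn11D61Y S vs. B at 1.19 ± 0.49 (adjusted p = 1 from limma). Its groups overlapped, at 4.80 to 6.91 in Ptpn11D61Y B and 6.20 to 7.08 in Ptpn11D61Y S. Erbb4 had an r of 0.82 with the mean of the interneuron list over the 12 arrays, and Nrg1 (0.86), Nrg3 (0.85) and Egfr (0.80) had similar values. Replicate 1 was lower in all 4 groups for Nrg1, Nrg3 and Egfr. For Erbb4 it was lower in control (-0.84 and -0.46) but not in Ptpn11D61Y (0.11 and 0.08). The r of these genes with the interneuron list was not computed without replicate 1. The part of interneurons in the values of Erbb4 was not tested.

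Erbb2, Nrg2 and Nrg4 were lower in S than in B in 5 of 6 animals each, and 17% of all clusters were lower in at least 5. Erbb2 differed by -0.69, -0.46 and -0.24 in control and by -0.72, 0.36 and -0.54 in Ptpn11D61Y, -0.38 ± 0.19 on average (adjusted p = 0.591 from limma). Nrg4 differed by -1.11, -0.04 and -0.37 in control and by -0.61, -0.04 and 0.20 in Ptpn11D61Y, on average -0.33 ± 0.19 (adjusted p = 0.591). Its size in both genotypes came largely from animal 1, and control S and control B did not overlap, as for 8.21% of all clusters with S lower. Nrg2 differed by -0.36, -0.22 and 0.04 in control and by -0.31, -0.11 and -0.18 in Ptpn11D61Y, -0.19 ± 0.12 on average (adjusted p = 0.594).

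Nrg1 was higher in S in 3 of 3 Ptpn11D61Y animals (0.55, 0.60 and 0.13) and in 1 of 3 control animals (-0.24, 0.13 and -0.54). The interaction of genotype and stimulation was 0.64 ± 0.63, with a 95% interval of -0.73 to 2.02 (adjusted p = 1 from limma), so the responses were not shown to differ. This was the largest interaction estimate of the 8 members, of which 0 passed the filter, against 1.17% of all clusters. Erbb3 was lower in S in 4 of 6 animals, with both animals numbered 1 the exceptions at 0.42 and 0.20, and Nrg3 differed by -0.07 to 0.55, 0.14 ± 0.12 on average.

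**Figure D4:**
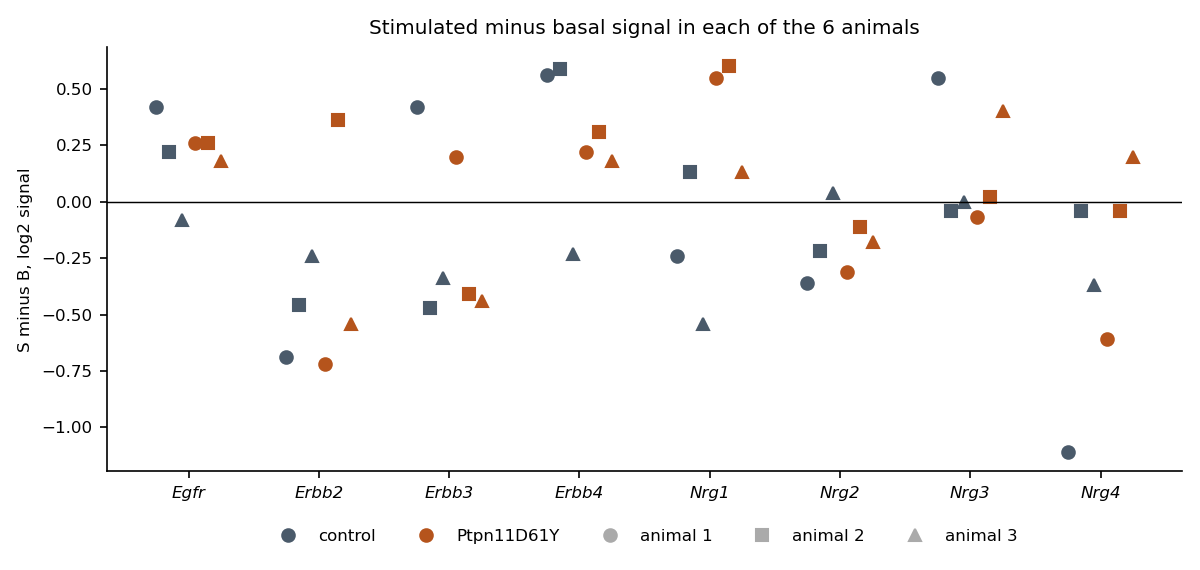
Stimulated minus basal log2 signal (vertical axis) of each gene (horizontal axis) in the 6 animals, with control in dark grey, Ptpn11D61Y in orange and the animal number by symbol. Egfr and Erbb4 lie above 0 in all animals but control animal 3, Nrg1 lies above 0 in the 3 Ptpn11D61Y animals at 0.13 to 0.60, and Nrg4 ranges from -1.11 to 0.20.

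Replicate 1 differed from replicates 2 and 3 in several members. Against the mean of replicates 2 and 3 of its group, Nrg1 was lower by 0.52 to 1.36 on the log2 scale, Nrg3 by 0.60 to 1.17, Egfr by 0.16 to 0.91 and Nrg2 by 0.07 to 0.34 in all 4 groups. Of all clusters, 26.7% were lower in replicate 1 in 4 of 4 groups and 9.06% were higher in 4 of 4. Nrg4 was higher by 0.54, 1.01 and 0.32 in control B, Ptpn11D61Y B and Ptpn11D61Y S and differed by -0.37 in control S. Erbb3 differed by -0.04 in control B, 0.79 in control S, 0.32 in Ptpn11D61Y B and 0.95 in Ptpn11D61Y S, and Erbb4 was lower in control (-0.84 and -0.46) and close to 0 in Ptpn11D61Y (0.11 and 0.08).

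**Figure D5:**
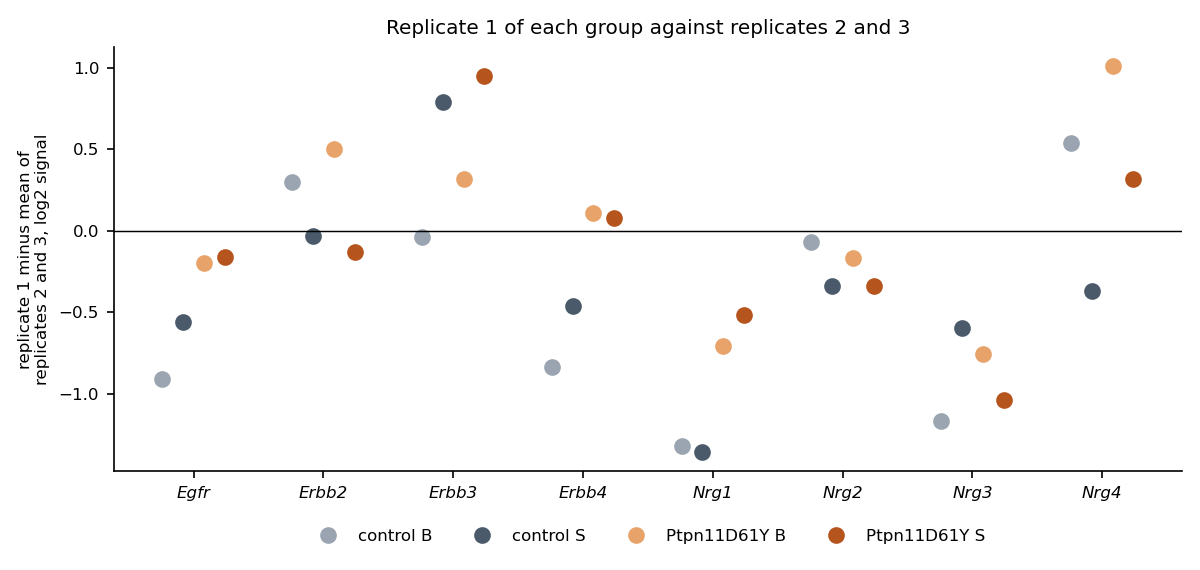
Log2 signal of replicate 1 minus the mean of replicates 2 and 3 (vertical axis) for each gene (horizontal axis), with 1 point per group. All 4 points of Nrg1 and of Nrg3 lie below -0.50, while those of Erbb3 run from -0.04 to 0.95.

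The members did not all vary together. Of the 28 pairs of members, 14 had an r above 0 over the 12 arrays, from -0.59 for Nrg3 with Nrg4 to 0.84 for Egfr with Nrg1. Over the 8 arrays of replicates 2 and 3 the same pairs had r = 0.58 and 0.52, so that the sign of the first turned. All pairs among Egfr, Erbb4, Nrg1 and Nrg3 lay above 0, at 0.56 to 0.84 over the 12 arrays and 0.15 to 0.64 over the 8. Erbb3 with its partner Erbb2 had r = 0.25 and 0.41, and Erbb3 with Erbb4 had -0.30 and -0.82. These values describe arrays that share animals and scaling, and no test was made.

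Genes whose pattern over the 12 arrays was most like that of a member were taken as the 5 with the highest r. The search covered 15867 genes with a mean log2 signal of at least 5. The 8 arrays without replicate 1 are part of the 12 used for the choice, so a high r there is no separate check. For Erbb3 they were Tnip2 (r = 0.924), Rps12-ps24 (0.880), Lmbr1l (0.878), Kif13a (0.860) and Ppp1r14a (0.851), and these kept an r of 0.793 to 0.865 over the 8 arrays without replicate 1. For Erbb4 they were Greb1l (0.934), Wdr83, Gm10639, Chd6 and Grin3a (0.916), with 0.867 to 0.975 over the 8 arrays. Nrg3 had near-identical patterns in U2surp (0.995), Ddx24, Nav3, Fip1l1 and Ap3d1 (0.991), which follow the same low replicate 1, and the 8 arrays still gave 0.872 to 0.975. Egfr was most like Ggcx (0.966), Mfsd5, Syce1, Ankrd26 and Rtl5 (0.934), but these fell to 0.518 to 0.814 without replicate 1. The genes nearest to the others were Tmem184a for Erbb2 (0.926), Rgs9 for Nrg1 (0.952), Mdk for Nrg2 (0.904) and Ern2 for Nrg4 (0.975).

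The wider pathway was described by 5 lists with 47 measured genes, covering the other ErbB ligands, neuregulin-like membrane proteins, the proteases that release the ligands, adaptors and effectors, and inhibitors of the receptors, and 0 of 47 passed the filter in each of the 7 comparisons. With 1.14% to 3.17% of all clusters past it, a count of 0 or close to 0 among 47 is near the background. Among the other ligands, 5 of 6 lay above 0 in Ptpn11D61Y B vs. control B with a median of 0.10, and betacellulin (Btc, 0.15 ± 0.26) and epigen (Epgn, 0.17 ± 0.29) had the largest moderated t. Of 3 neuregulin-like proteins, Tmeff2 was at -0.15 ± 0.27 and Cspg5 at 0.18 ± 0.40. Of 8 proteases and partners, 4 lay above 0, with Adam19 at -0.20 ± 0.23. The sheddase Adam17 was at 4.99, 5.65 and 6.01 in control B and at 5.82, 5.92 and 6.30 in Ptpn11D61Y B, overlapping groups with a difference of 0.46 ± 0.29 (adjusted p = 1 from limma), which was 0.19 without control B replicate 1 and passed the filter at 0.69 without control B replicate 3.

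Adaptors and effectors lay above 0 for 10 of 22 genes in the basal comparison, with a median of -0.02. Stat5b, a transcription factor downstream of the receptors, was at 4.18, 6.69 and 6.90 in control B and at 6.61, 7.01 and 7.40 in Ptpn11D61Y B, an estimate of 1.08 ± 0.61 (adjusted p = 1 from limma) that fell to 0.21 without the low control B replicate 1 and passed the filter at 1.57 without control B replicate 3. The adaptor Shc2 was at -0.36 ± 0.24. Inhibitors lay below 0 for 6 of 8 genes, with a median of -0.08, and Lrig1, which promotes the degradation of ErbB receptors, was at -0.24 ± 0.37 and Lrig3 at 0.15 ± 0.25. In the stimulation over both genotypes, 17 of 22 adaptors and 6 of 8 inhibitors lay above 0, with medians of 0.08 and 0.14 against -0.07 for all clusters. The largest moderated t among them belonged to the Ras exchange factor Sos1 at 0.24 ± 0.10 (adjusted p = 0.591 from limma) and the PI3K subunit Pik3r3 at 0.27 ± 0.13, and to Erbin, a binding partner of Erbb2, at -0.19 ± 0.10 and Rnf41, a ubiquitin ligase for Erbb3, at 0.28 ± 0.15 (adjusted p = 0.591 for each). All of them stayed under a fold of 1.5.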

How the data were processed

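Signal intensity values of 12 Affymetrix Mouse Gene 2.0 ST arrays were deposited by the authors in 1 table; by the methods, the authors had background-corrected them, summarised the probes with PLIER and made the arrays comparable by quantile normalization. The deposited intensities are linear, although the methods name a log2 scale, so each was raised to at least 1 (the floor) and taken to log2 here. Under the floor lay 2.89% of values, and array medians still ran from 36.5 to 58.1. Precision is limited by the 3 arrays per group and, for dim clusters, by background.

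Of the 41345 clusters, 23521 carry 1 symbol in the platform annotation. limma 3.58.1 in R 4.3.3 was fitted with a mean for each group over the 12 arrays (8 residual degrees of freedom, variance trend on signal), and Benjamini-Hochberg adjustment ran over all clusters. Comparisons over both states or both genotypes used the 6 animals. Exact permutation tests were two-sided. Named genes were all members and, from each list spoken of, those past the filter and the 2 with the largest moderated t. The members and lists were chosen with earlier results of these data known. The code was tested on simulated data.

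By the labels, B and S slices of the same number are from 1 animal. After removal of group means their arrays correlated at 0.05, -0.01 and 0.04 in control and at 0.55, 0.39 and 0.19 in Ptpn11D61Y, with a consensus of 0.292. Different animals with the same number correlated at 0.56, 0.36 and 0.19 in B and at 0.12, 0.04 and 0.18 in S. Alternatives covered the methods' one-way ANOVA, scaling, an offset of 16, a filter at a mean log2 signal of 5, array weights, blocks and leaving out arrays. Sequences were not used here.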

Additional observations from a re-analysis of the deposited data

How the results depend on the processing

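Of 904 member values recomputed under the alternatives, 889 kept their side of the filter, 5 gained it and 10 lost it, all of them for Erbb3. Of the 56 member estimates, 28 changed sign under at least 1 alternative, none of which had passed the filter: in Ptpn11D61Y B vs. control B, Egfr ran from -0.11 to 0.45, Erbb2 from -0.16 to 0.26, Erbb4 from -0.41 (with array weights) to 0.21, Nrg1 from -0.63 to 0.12, Nrg3 from -0.46 to 0.19 and Nrg4 from -0.38 to 0.18, and Nrg2 in control S vs. B ran from -0.28 to 0.02 (with arrays centred on their median). The count in Ptpn11D61Y B vs. control B fell from 1 to 0 with log2 of the intensity plus 16 (Erbb3 0.55) and ran from 0 to 1 with arrays left out in turn (Erbb3 0.62 to 0.81). In Ptpn11D61Y S vs. control S it rose from 0 to 1 with array weights (Erbb3 0.60), with the replicate number as a fixed replicate block (0.64, adjusted p = 0.975) and without replicate 1 of every group (0.59), and ran from 0 to 1 with arrays left out in turn (0.32 to 0.90). Over both states it fell from 1 to 0 with log2 of the intensity plus 16 (0.51) and ran from 0 to 1 with animals left out in turn (0.47 to 0.82, lost at 0.61 and 0.63 without control animals 2 and 3 and at 0.47 without Ptpn11D61Y animal 1). The offset shrinks the differences of dim clusters by construction; the cause of the other changes was not tested. With the replicate block Erbb3 in B was at 0.73 ± 0.24 and past the filter, and the animal as a random block or the replicate number as a fixed one changed no other call of a member. The share of all clusters past the filter ran over the alternatives from 0.593% to 7.2% in B, 0.697% to 3.95% in S, 1.32% to 5.57% in control S vs. B, 0.452% to 8% in Ptpn11D61Y S vs. B, 0.537% to 5.63% for the interaction, 0.186% to 2.85% for genotype over both states and 0.486% to 6.22% for stimulation over both genotypes. Each member has 1 cluster, so the alternative of another cluster was not run.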
